A study of Mus musculus with 6 samples.

Results

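The cDC1 surface identity markers are 10 genes, Clec9a, Xcr1, Cd8a, Itgae, Cd24a, Cadm1, Ly75, Flt3, Btla and Dpp4, whose products are used to recognise type 1 conventional dendritic cells (cDC1) at the cell surface. They were taken by name from a total of 32903 gene symbols, and all 10 were found in the expression table. They were followed in MuTuDC1940 cells given 5 µg/ml of poly(I:C) over 18 hours and in the same cells left untreated. The series was made to find genes that this stimulus raises. The series holds 3 treated and 3 untreated samples, and 2 libraries per group are compared here, those headed PolyIC01 and PolyIC02 against those headed NT01 and NT02. Values are in TPM, a transcript abundance per length, scaled so that every library sums to 1000000, so levels may be compared between genes but the sequencing depth is unknown.

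MuTuDC1940 is a mouse dendritic cell line from a splenic tumour of an animal that carried a viral oncogene under the promoter of Itgax (CD11c), so all 4 libraries come from a transformed line. Poly(I:C), a double-stranded RNA polymer made in the laboratory, mimics the RNA of replicating viruses. Whether the samples came from separate cultures is not stated in the labels, so the p-values below measure the spread between these libraries only, which may be technical.

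The cDC1 subset takes up dying cells and presents their antigens on MHC class I to CD8+ T cells. Its surface carries receptors that find dead cells and T cells, adhesion molecules that hold contacts, and receptors that tune growth and T cell activation. The 10 genes belong to these 3 kinds: recognition and uptake (Xcr1, Clec9a, Ly75), adhesion and co-receptor function (Cd8a, Itgae, Cadm1, Cd24a), and growth, inhibitory and enzymatic functions (Flt3, Btla, Dpp4). By the RefSeq annotation (GRCm38.p6) they lie on chromosomes 2 (Ly75, Dpp4), 5 (Flt3), 6 (Clec9a, Cd8a), 9 (Xcr1, Cadm1), 10 (Cd24a), 11 (Itgae) and 16 (Btla). Several of them also occur on T cells, B cells or epithelium, so each is a marker only in combination with others.

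Of the 10 surface genes 6 rose with poly(I:C), 3 fell and 1 did not pass the test. Xcr1, Dpp4, Btla, Ly75, Clec9a and Cadm1 rose, Cd24a, Flt3 and Cd8a fell, and Itgae did not pass. A gene is said to rise or fall where its limma p, after Benjamini-Hochberg adjustment over the 12520 tested genes, was under 0.05. All 10 genes passed the expression limit for testing (an average of 0.5 TPM) and did so in each group's mean. By this rule 60.8% of all tested genes passed, 28.4% rising and 32.4% falling, so passing alone does not set these genes apart. None rose 2-fold or more (5.69% of all tested genes did), and Cd24a alone fell 2-fold or more (2.76% of all tested genes did), measured as log2(TPM + 1); in either direction 8.44% of all tested genes passed and reached this size. The treated and untreated values did not overlap for 9 of the 10 genes, against 81.3% of all tested genes. The median log2 fold change of the 10 genes was 0.17, and that of all tested genes was -0.02. The median absolute log2 change was 0.31 for the 10 genes and 0.27 for all tested genes.

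**Figure D1:**
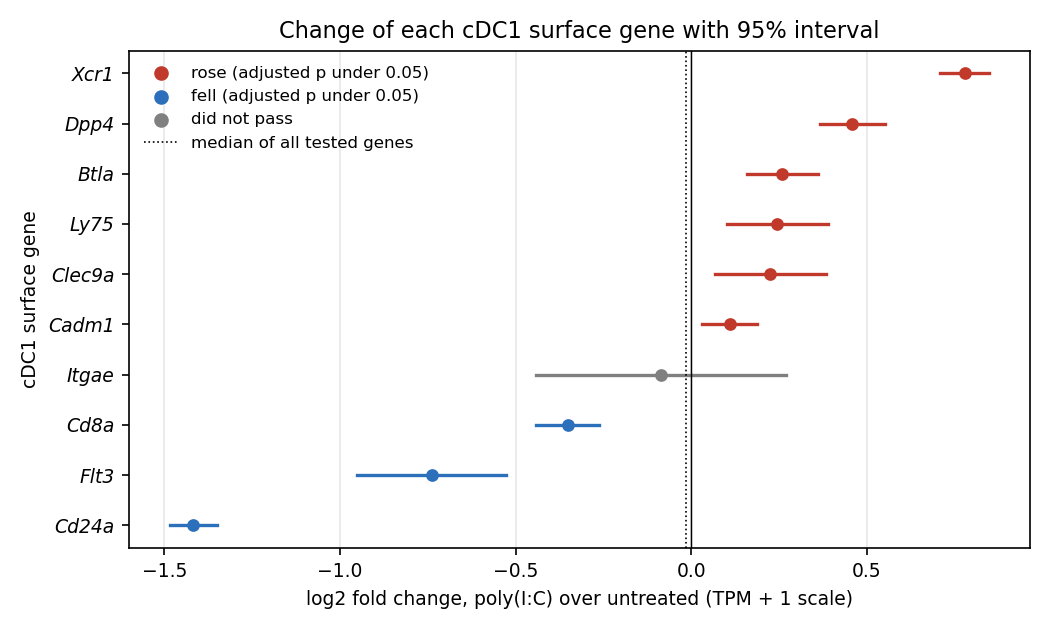
Log2 fold change of each cDC1 surface gene, poly(I:C) over untreated, on the log2(TPM + 1) scale (points) with its 95% interval from limma (lines, 2 libraries per group). Xcr1 lies highest at 0.78 and Cd24a lowest at -1.42; the interval of Itgae crosses 0.

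The genes kept a similar summed level while their proportions changed. The 10 genes together held 1387 and 1345 TPM in the treated libraries, against 1361 and 1309 TPM in the untreated ones. Cd24a made up 10.1% and 10.7% of this sum in the treated libraries, against 28.2% and 29.1% in the untreated ones. Xcr1 made up 24.2% and 24.3% of it in the treated libraries, against 14.3% and 14.6% in the untreated ones. Without Cd24a the sum was higher in both treated libraries, at 1247 and 1200 TPM, against 977 and 928 TPM in the untreated ones. In treated cells the order by mean TPM was Xcr1, Btla, Clec9a, Dpp4, Cd24a, Cadm1, Cd8a, Ly75, Flt3 and Itgae, and no neighbouring pair in this order overlapped between libraries. In untreated cells it was Cd24a, Btla, Clec9a, Xcr1, Dpp4, Cadm1, Cd8a, Ly75, Flt3 and Itgae, and only Clec9a and Xcr1 overlapped. The lower positions, from Cadm1 down to Itgae, were the same in both groups.

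**Figure D2:**
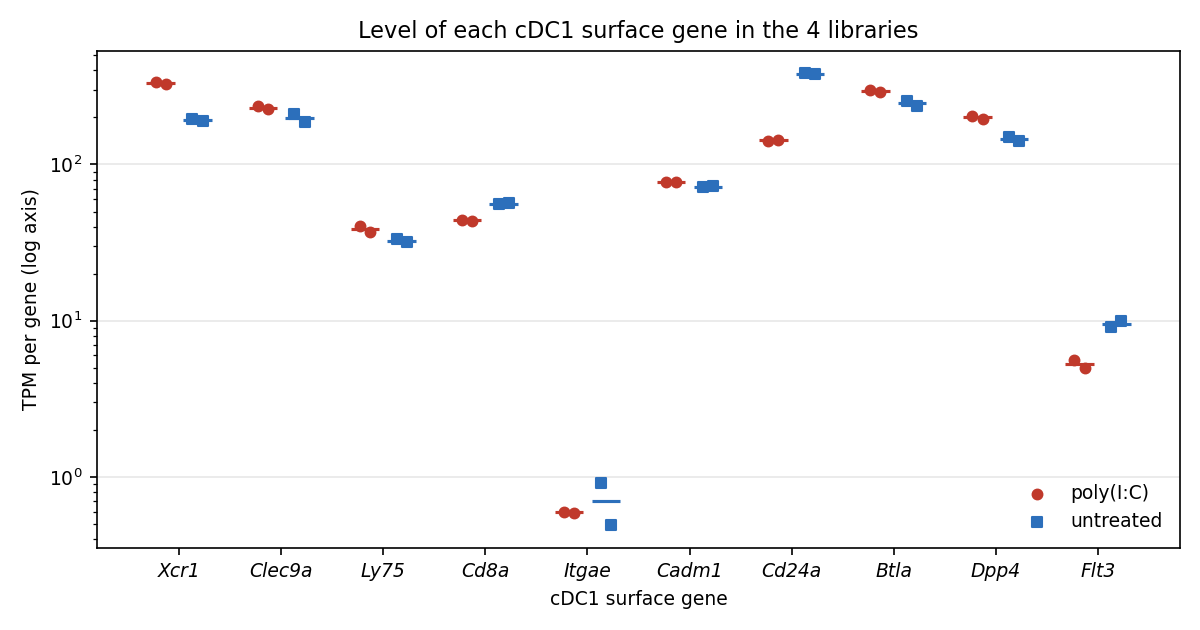
TPM of each cDC1 surface gene in the 2 poly(I:C) libraries (red circles) and the 2 untreated libraries (blue squares) on a log axis; horizontal lines are group means. The genes span from under 1 TPM (Itgae) to over 300 TPM (Xcr1 in treated and Cd24a in untreated cells).

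Among the receptors of recognition and uptake, Xcr1 showed the largest rise of all 10 genes. Its product is the receptor for the chemokine XCL1, which activated CD8+ T cells and natural killer cells release; the gene spans 123852315 to 123862029 on chromosome 9 (GRCm38). Xcr1 was at 335 and 326 TPM in the treated libraries, against 194 and 191 TPM in the untreated ones. Both treated values lay far above both untreated ones: the nearest libraries of the 2 groups were 132 TPM apart, while libraries of a group differed by 9.02 TPM (treated) and 3.58 TPM (untreated). The ratio of means was 1.72 and the log2 fold change 0.78 (SE 0.028, 95% interval 0.71 to 0.85, limma adjusted p = 1.10e-05). By level it ranked 430 and 438 of all gene symbols in the treated libraries, against 771 and 779 in the untreated ones. The change was larger in size than that of 86.1% of all tested genes. Of the 31-base words of the Xcr1 transcript 3.05% also occur in transcripts of other genes, chiefly 4930579G24Rik, Mvp and Adat1. Their part in the Xcr1 value was not tested. The gene for the ligand of XCR1, Xcl1, was listed at 0 in all 4 libraries.

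Clec9a encodes DNGR-1, a C-type lectin that binds actin filaments exposed by dead cells and signals through the kinase Syk. It was at 237 and 225 TPM in the treated libraries, against 209 and 186 TPM in the untreated ones. The groups did not overlap, but the 2 untreated libraries were 23.3 TPM apart, more than the 15.8 TPM between the nearest treated and untreated values. The log2 fold change was 0.23 (SE 0.062, 95% interval 0.07 to 0.38, limma adjusted p = 0.0262). The call was lost without PolyIC01 (adjusted p = 0.135), without PolyIC02 (0.0627), without the expression limit (0.0630) and without trend and robust moderation (0.0667). Clec9a lies on chromosome 6 at 129408862 to 129424764 (GRCm38), inside the annotated span of Clec12b, and 4.63% of the 31-base words of its transcripts also occur in transcripts of Clec1b. Both of these neighbours were under 1 TPM in every library.

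For Clec9a 4 RefSeq transcripts were measured, and they differ in which coding exons they keep. Exon and base counts of transcripts, here and below, are those of the GENCODE M21 model paired with each RefSeq transcript. Such a model may differ in length from the transcript measured. The 7-exon transcript NM_001205363 carried most of the level, with 190 and 179 TPM in treated cells, against 161 and 143 TPM in untreated cells. The transcript NM_172732 lacks exon 4, and its model is also shorter outside the coding part (1020 bases in total, against 3293). NM_172732 was at 19.4 and 17.4 TPM in treated cells, against 14.9 and 13.7 TPM in untreated cells. That exon has 78 coding bases, at chromosome 6, 129416328 to 129416405 on the plus strand. The sequence is shown because the coding parts of these forms differ by it; capitals mark the exon and lower case the 20 bases on each side in the transcript (GENCODE M21, GRCm38).
Clec9a with exon 4: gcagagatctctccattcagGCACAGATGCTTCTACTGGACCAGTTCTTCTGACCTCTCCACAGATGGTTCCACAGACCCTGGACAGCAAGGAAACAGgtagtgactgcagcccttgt
Clec9a without exon 4: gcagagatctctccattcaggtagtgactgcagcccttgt
Transcripts with this exon held 80.9% and 80.4% of the gene's TPM in treated cells, against 78.0% and 77.5% in untreated cells. NM_001205365 was paired with a model of 4 exons and 446 bases, all coding, the shortest such model for this gene. It was lower in both treated libraries, with 25.9 and 26.7 TPM in treated cells, against 31.2 and 28.2 TPM in untreated cells. The remaining transcript, NM_001205364, was at 1.14 and 1.42 TPM in treated cells, against 1.63 and 0.802 TPM in untreated cells, and overlapped. The division of a gene's reads between transcripts that share most bases is an estimate, and these shares were not tested.

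Ly75 encodes DEC-205, an endocytic receptor that carries bound antigen to processing compartments. It was at 40.7 and 37.0 TPM in the treated libraries, against 33.1 and 32.1 TPM in the untreated ones. Both treated values were higher, and the 3.64 TPM between them nearly equalled the 3.94 TPM between the nearest treated and untreated libraries. Its log2 fold change came to 0.25 (SE 0.057, 95% interval 0.10 to 0.39, limma adjusted p = 0.0131), and the call was lost without PolyIC01 (adjusted p = 0.0677). Ly75 had 1 transcript in the table, and none of its 31-base words occurred in transcripts of other genes.

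Among the adhesion and co-receptor genes, Cd24a showed the largest fall of the 10 genes. Its product is a short, heavily glycosylated protein held in the membrane by a lipid anchor, from a gene at 43579169 to 43584265 on chromosome 10 (GRCm38). It was at 141 and 144 TPM in the treated libraries, against 383 and 381 TPM in the untreated ones. The nearest libraries of the 2 groups were 237 TPM apart, against 3.71 TPM within the treated and 2.43 TPM within the untreated group. The mean in treated cells was 0.373 times that in untreated cells, with a log2 fold change of -1.42 (SE 0.026, 95% interval -1.48 to -1.35, limma adjusted p = 1.69e-06). The change was larger in size than that of 96.1% of all tested genes. In bulk RNA, fewer cells that express a gene and less of its RNA per cell cannot be told apart. The single Cd24a transcript has 1816 bases, of which 228 are coding, and 7.11% of its 31-base words also occur in transcripts of other genes, chiefly Gm6212, so a part of its value may be shared with such copies. Siglecg, whose product is a receptor for CD24 in the mouse, was low and variable, at 0.136 and 0.683 TPM in treated and 1.66 and 0.503 TPM in untreated cells (log2 fold change -0.53, 95% interval -1.47 to 0.40, limma adjusted p = 0.250). The Siglecg value rested on single libraries: it was -0.95 without NT02 (adjusted p = 0.0454) and -0.25 without PolyIC01 (0.690).

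Cd8a encodes the alpha chain of CD8, which on T cells binds MHC class I and brings the kinase Lck to the receptor; on dendritic cells it occurs as a pair of alpha chains. It was at 44.3 and 43.4 TPM in the treated libraries, against 56.1 and 56.4 TPM in the untreated ones. Libraries of a group differed by less than 1 TPM and the groups by at least 11.7 TPM. This gave a log2 fold change of -0.35 (SE 0.036, 95% interval -0.44 to -0.26, limma adjusted p = 0.000507). The beta chain gene, Cd8b1, was at 0.0251 and 0 TPM in treated and 0.0235 and 0 TPM in untreated cells. The T cell genes Cd3e and Cd3g were listed at 0 in all 4 libraries. Cd3d was at 1.59 and 1.47 TPM in treated and 1.01 and 0.678 TPM in untreated cells, and Lck at 0.632 and 0.843 TPM in treated and 0.0940 and 0.0816 TPM in untreated cells. Their part in the Cd8a values was not tested.

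Mouse CD8 alpha is known in a full form and in a form with a shortened cytoplasmic tail, and the table holds a transcript of each kind. Their coding parts differ by exon 4, of 31 bases, at chromosome 6, 71375888 to 71375918 on the plus strand (GRCm38). Since 31 is not a multiple of the codon length, leaving the exon out shifts the frame, and the coding length is 741 bases with it (NM_001081110) and 666 bases without it (NM_009857). The total lengths of their GENCODE models are 3128 and 2975 bases. Capitals mark the exon that sets the tail.
Cd8a with exon 4: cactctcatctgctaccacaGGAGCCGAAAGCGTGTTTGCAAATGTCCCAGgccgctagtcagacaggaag
Cd8a without exon 4: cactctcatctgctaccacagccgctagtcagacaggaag
The full form was at 26.9 and 24.9 TPM in treated cells, against 32.7 and 34.0 TPM in untreated cells. The short-tail form was at 17.4 and 18.4 TPM in treated cells, against 23.4 and 22.4 TPM in untreated cells. Both forms were thus lower in both treated libraries. The full form held 60.8% and 57.5% of the gene's TPM in treated cells, against 58.3% and 60.3% in untreated cells, so the shares overlapped between groups.

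Itgae encodes the alpha E integrin chain (CD103), which pairs with the beta 7 chain to bind E-cadherin and is used among the markers of cDC1. It was barely detected in this line, at 0.597 and 0.589 TPM in treated cells, against 0.918 and 0.490 TPM in untreated cells. The treated values lay between the untreated ones. The log2 fold change was -0.09 (SE 0.14, 95% interval -0.44 to 0.27, limma adjusted p = 0.630), an interval that covers changes in both directions. Its sign turned without NT01 (0.10), and with curated transcripts alone the gene lay under the expression limit. A predicted transcript held 43.6% and 42.2% of the gene's TPM in treated and 66.3% and 57.6% in untreated cells. It was lower in both treated libraries, at 0.260 and 0.249 TPM, against 0.609 and 0.282 TPM in untreated cells. The curated transcript was higher in both treated libraries, at 0.337 and 0.341 TPM, against 0.310 and 0.208 TPM in untreated cells. At these low levels the division between the transcripts is an estimate and was not tested.

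The partner chain of Itgae behaved otherwise. Itgb7 was at 18.8 and 21.1 TPM in treated cells, against 119 and 120 TPM in untreated cells. The change was -2.52 on the log2 scale (SE 0.059, limma adjusted p = 2.93e-06), with no overlap between groups. The beta 7 chain also pairs with the alpha 4 chain as a gut-homing integrin. Cdh1, the gene of the ligand E-cadherin, was at 0.367 and 0.408 TPM in treated cells, against 1.20 and 1.27 TPM in untreated cells (log2 fold change -0.69, limma adjusted p = 0.00151); it reached the expression limit, a mean of 0.5 TPM, through the untreated libraries, which favours a fall.

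Cadm1 encodes an immunoglobulin-type adhesion molecule that binds CRTAM on activated T cells. It showed the smallest change among the genes that passed. It was at 77.5 and 77.7 TPM in the treated libraries, against 71.3 and 72.5 TPM in the untreated ones. Values within a group were close and the groups did not overlap. On the log2 scale the change was 0.11 (SE 0.031, 95% interval 0.03 to 0.19, limma adjusted p = 0.0258). The call was lost when any single library was left out (adjusted p between 0.0501 and 0.116) and without trend and robust moderation (0.0769). Crtam was under 0.1 TPM in every library.

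The coding parts of Cadm1 transcripts differ in 3 small exons that lengthen the stalk between the immunoglobulin domains and the membrane. They are listed as exons 8, 9 and 10 of the 12-exon transcript NM_001310841, at chromosome 9, 47818734 to 47818817, 47829377 to 47829409 and 47836717 to 47836770 on the plus strand (GRCm38). They are shown with 20 neighbouring bases on each side of that transcript, the exon in capitals.
Cadm1 exon 8: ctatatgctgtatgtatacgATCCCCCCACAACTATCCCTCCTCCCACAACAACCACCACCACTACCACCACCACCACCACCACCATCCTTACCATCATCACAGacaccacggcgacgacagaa
Cadm1 exon 9: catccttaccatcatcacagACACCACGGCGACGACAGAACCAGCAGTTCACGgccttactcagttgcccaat
Cadm1 exon 10: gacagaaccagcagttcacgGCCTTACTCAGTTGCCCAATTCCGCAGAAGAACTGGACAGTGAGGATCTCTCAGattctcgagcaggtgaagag
Exon 8, of 84 bases, was in transcripts that held 98.9% and 97.9% of the TPM of the 5 curated transcripts in treated cells, against 98.7% and 98.4% in untreated cells. Exon 9, of 33 bases, was in transcripts with 36.6% and 36.4% in treated cells, against 31.7% and 32.5% in untreated cells. Exon 10, of 54 bases, was in the transcript with 14.5% and 13.1% in treated cells, against 13.8% and 11.9% in untreated cells. The form with exon 8 but neither exon 9 nor 10, NM_018770, was the main one and was nearly level, at 48.8 and 48.8 TPM in treated cells, against 48.0 and 48.1 TPM in untreated cells. The form with exons 8 and 9, NM_207675, was at 16.5 and 17.0 TPM in treated cells, against 12.5 and 14.6 TPM in untreated cells.

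**Figure D3:**
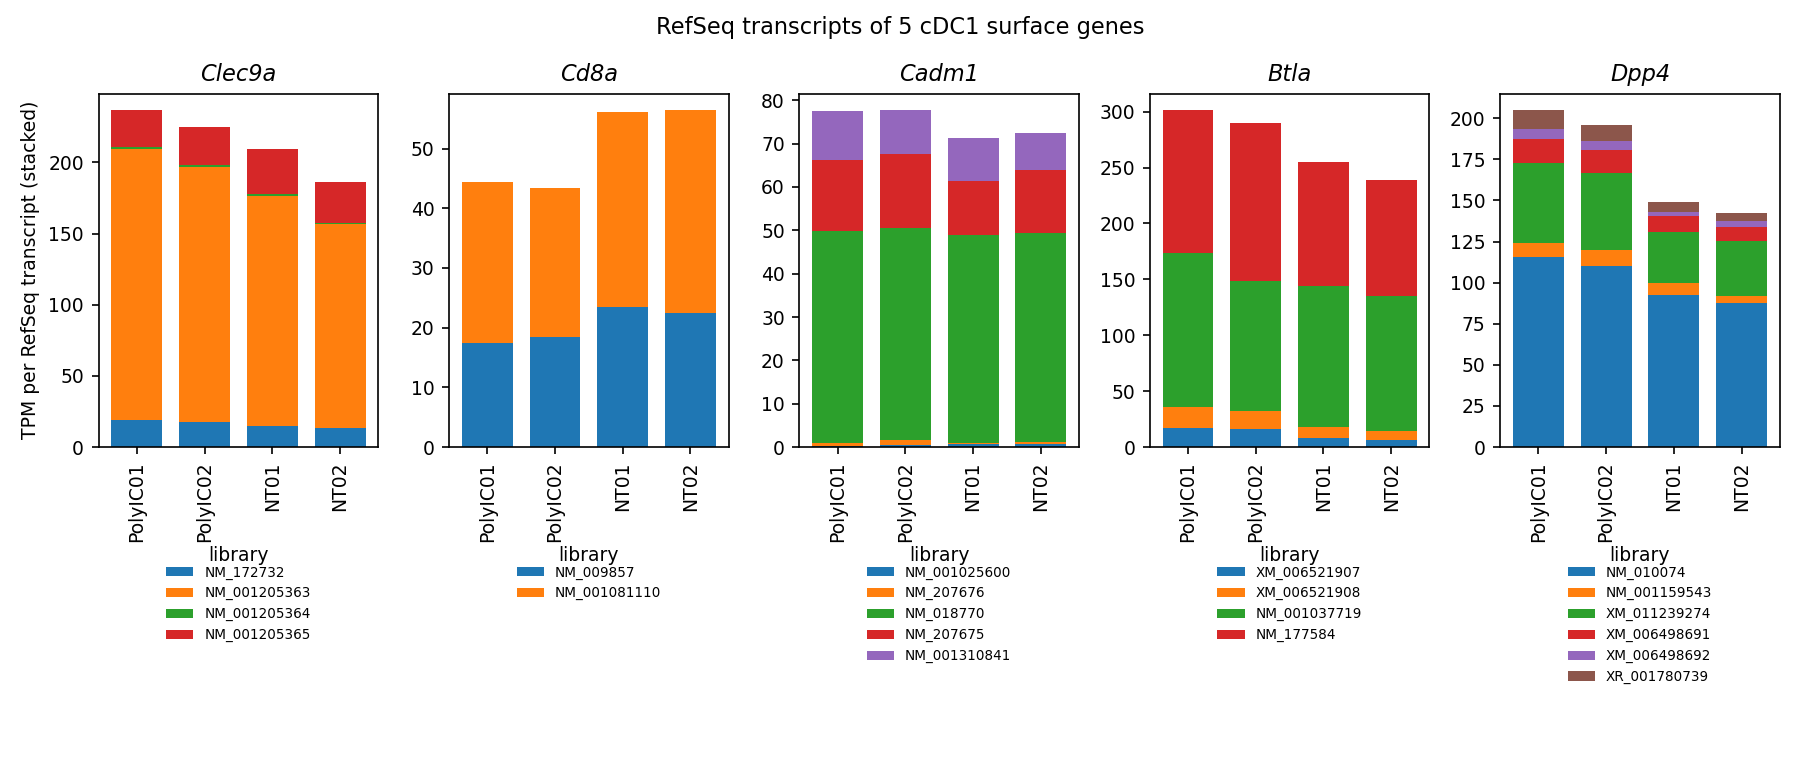
TPM of the RefSeq transcripts of Clec9a, Cd8a, Cadm1, Btla and Dpp4, stacked per library (poly(I:C) libraries left, untreated libraries right); transcripts under 0.5% of their gene in all 4 libraries are not drawn. Clec9a and Cadm1 each have 1 main form in all 4 libraries, while Cd8a and Btla are divided between 2 main forms.

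Among the growth, inhibitory and enzymatic genes, Flt3 fell and Btla and Dpp4 rose. Flt3 encodes the receptor tyrosine kinase whose ligand drives dendritic cell development. It was at 5.62 and 5.00 TPM in the treated libraries, against 9.13 and 9.91 TPM in the untreated ones. The nearest libraries of the groups were 3.52 TPM apart, against 0.615 TPM within the treated and 0.775 TPM within the untreated group. The log2 fold change was -0.74 (SE 0.085, 95% interval -0.95 to -0.53, limma adjusted p = 0.000809). Flt3l, the gene of its ligand, was at 7.53 and 6.93 TPM in treated cells, against 7.04 and 6.21 TPM in untreated cells, and the groups overlapped (log2 fold change 0.11, 95% interval -0.11 to 0.33, limma adjusted p = 0.316). Cbl, a ubiquitin ligase that acts on receptor kinases, was at 65.1 and 61.6 TPM in treated cells, against 57.4 and 53.7 TPM in untreated cells (log2 fold change 0.19, limma adjusted p = 0.0207). The call for Cbl was lost under 5 of the 11 alternatives, among them the omission of NT02 or of PolyIC01, and with curated transcripts alone the value was 0.68 (adjusted p = 0.129).

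Btla encodes an inhibitory receptor of the immunoglobulin family that binds HVEM, the product of Tnfrsf14, and recruits the phosphatases encoded by Ptpn6 and Ptpn11. It was at 301 and 289 TPM in the treated libraries, against 254.5 and 238 TPM in the untreated ones. The groups did not overlap and lay 34.9 TPM apart at their nearest, with 11.7 TPM within the treated and 16.03 TPM within the untreated group. The log2 fold change was 0.26 (SE 0.040, 95% interval 0.16 to 0.36, limma adjusted p = 0.00272). The main transcripts NM_001037719 and NM_177584 are spliced 3 bases apart at the start of exon 4, at chromosome 16, 45244153 to 45244155 on the plus strand (GRCm38). Their GENCODE models also differ in total length (1598 and 3251 bases). Capitals mark the bases of the in-frame splice difference.
Btla longer splice form: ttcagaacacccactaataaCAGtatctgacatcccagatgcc
Btla shorter splice form: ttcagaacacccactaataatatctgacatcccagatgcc
Of the TPM of these transcripts, the longer splice form, NM_001037719, held 52.0% and 45.3% in treated cells, against 53.2% and 53.9% in untreated cells. It overlapped between groups, at 138 and 116 TPM in treated cells, against 126 and 121 TPM in untreated cells. NM_177584 did not overlap, at 127 and 140 TPM in treated cells, against 111 and 103 TPM in untreated cells. The 2 predicted Btla transcripts together were at 35.7 and 32.5 TPM in treated cells, against 18.1 and 14.7 TPM in untreated cells. With curated transcripts alone the log2 fold change of Btla was 0.18 (adjusted p = 0.0129).

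The partners of BTLA moved in different directions. Tnfrsf14 was at 26.6 and 25.6 TPM in treated cells, against 17.6 and 15.1 TPM in untreated cells (log2 fold change 0.65, SE 0.079, limma adjusted p = 0.000996). With curated transcripts alone its log2 fold change was -0.20 (adjusted p = 0.745), so its call rests on predicted transcripts. Ptpn6 rose to 360 and 362 TPM in treated cells, against 182 and 185 TPM in untreated cells (log2 fold change 0.97, limma adjusted p = 3.49e-06). Ptpn11 fell to 60.8 ± 1.05 TPM in treated cells, against 88.8 ± 1.71 TPM in untreated cells (SD, n = 2 each; log2 fold change -0.54, limma adjusted p = 7.82e-05). Cd160, which encodes another receptor for HVEM, was between 0.168 and 0.214 TPM in the 4 libraries.

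Dpp4 encodes CD26, a membrane peptidase that trims chemokines and other peptides. It was at 205 and 196 TPM in the treated libraries, against 149 and 142 TPM in the untreated ones. The nearest libraries of the groups were 47.1 TPM apart, against 8.68 TPM within the treated and 6.87 TPM within the untreated group. Its log2 fold change was 0.46 (SE 0.037, 95% interval 0.37 to 0.55, limma adjusted p = 0.000202). Its 4 predicted transcripts together held 80.5 and 76.4 TPM in treated cells, against 49.5 and 50.3 TPM in untreated cells. The main curated transcript, NM_010074, was at 116 and 110 TPM in treated cells, against 92.4 and 87.5 TPM in untreated cells, so curated and predicted forms were both higher in both treated libraries.

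**Figure D4:**
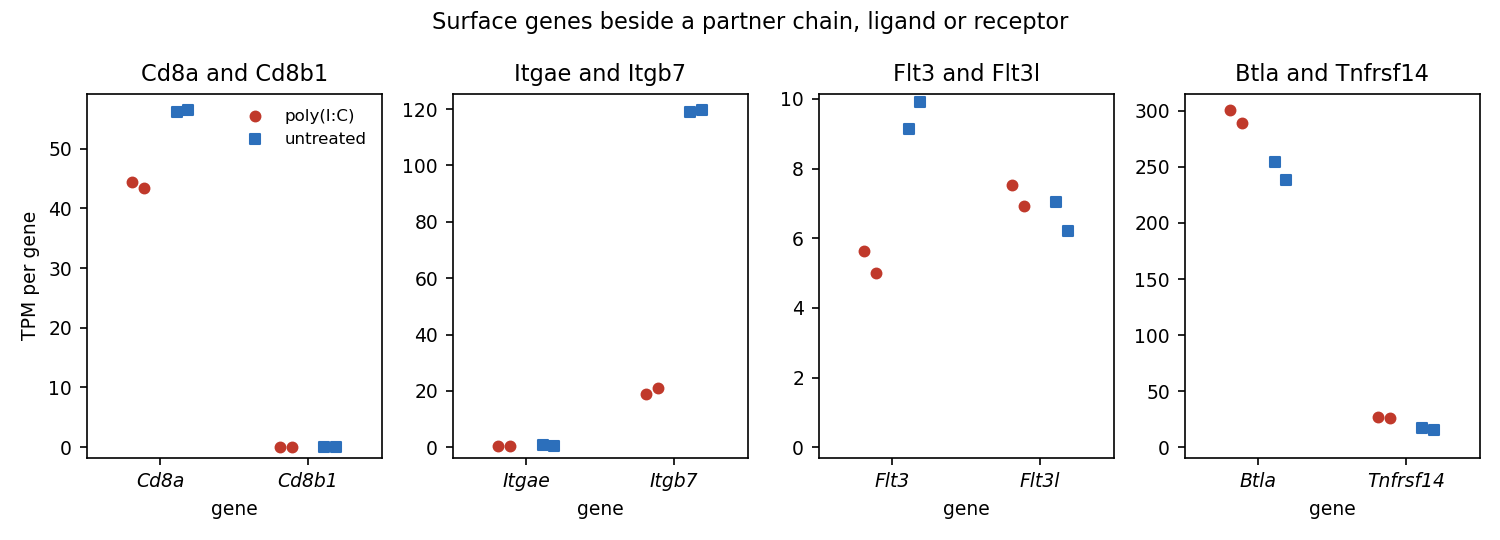
TPM of Cd8a, Itgae, Flt3 and Btla beside the gene of a partner chain (Cd8b1, Itgb7), a ligand (Flt3l) or a ligand receptor (Tnfrsf14), with 2 poly(I:C) libraries (red circles) left of 2 untreated libraries (blue squares); each panel has its own axis from 0. Cd8b1 stays near 0, Itgb7 lies at about 20 TPM in treated cells against about 119 TPM in untreated cells, and Flt3l overlaps between groups.

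Of the 14 genes fixed as ligands, partner chains and signalling partners of the surface genes, 10 could be tested, of which 3 rose, 5 fell and 2 did not pass. The remaining ones of signalling were Syk, the kinase used by DNGR-1, and Gnai2, an inhibitory G protein subunit that chemokine receptors use. Syk was at 33.3 and 32.7 TPM in treated cells, against 40.9 and 36.7 TPM in untreated cells (log2 fold change -0.22, limma adjusted p = 0.0224, lost under 4 of 11 alternatives, among them the omission of NT01, PolyIC01 or PolyIC02). Gnai2 was at 731 and 754 TPM in treated cells, against 829 and 858 TPM in untreated cells (log2 fold change -0.18, limma adjusted p = 0.00295).

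Promoter sequence from RefSeq (GRCm38.p6, 250 bases before to 50 after the start site) was at hand for 7 of the 10 genes, Clec9a, Xcr1, Cd8a, Ly75, Flt3, Btla and Dpp4. Short motifs were searched on both strands, and a match describes letters, not a bound site. An interferon response element-like motif, GAAA and GAAA with any 2 bases between them, occurred in 1 of the 7, that of Dpp4, and in 3.44% of all 32851 promoters in the table. The letters TTCNNNGAA, of the kind STAT factors bind, and TGANTCA, of the kind AP-1 and BATF factors bind, occurred in none of the 7, and in 8.3% and 7.81% of all promoters. GAGGAA, a core of the kind ETS factors such as PU.1 bind, occurred in 3 of the 7 (Cd8a, Btla and Dpp4) and in 28.3% of all promoters. The 30 bases around the Dpp4 match and around a pair of adjacent matches in Btla are printed to show these letters, with the matches in capitals. They lie at chr2:62412264-62412293, minus strand, and chr16:45224304-45224333, plus strand.
Dpp4 window: acaatcacctTTTCTCTTTCtttgccagcc
Btla window: atctctaggGAGGAAGAGGAAgtttgccct
The Dpp4 match is on the antisense strand at bases -52 to -43 from the start site used by the table. The annotated gene extends further upstream, to 62412315, so the match lies inside the annotated gene. The annotated Btla gene also begins upstream, at 45223705, of the start site used for its window.

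Other genes of the cDC1 programme gave a background for the surface genes. Of 15 regulators and intracellular cDC1 genes, which were all tested, there were 5 that rose, 5 that fell and 5 that did not pass; their median log2 fold change was -0.05. Irf8, the transcription factor that defines the lineage, was at 2558 and 2639 TPM in treated cells, against 2482 and 2477 TPM in untreated cells (log2 fold change 0.07, limma adjusted p = 0.0497, a call lost under 7 of 11 alternatives, among them the omission of NT01, NT02 or PolyIC02). Batf3, its partner, was at 114 and 120 TPM in treated cells, against 145 and 143 TPM in untreated cells (log2 fold change -0.30, limma adjusted p = 0.000772). Tlr3, whose product senses double-stranded RNA in endosomes, was at 136 and 151 TPM in treated cells, against 261 and 245 TPM in untreated cells (log2 fold change -0.81, limma adjusted p = 0.000172). The largest passing changes of the list were those of Gcsam, a germinal centre B cell adaptor gene (10.8 ± 0.421 TPM in treated and 1.90 ± 0.145 TPM in untreated cells, SD, n = 2 each; log2 fold change 2.03), and of Tlr12, an endosomal receptor gene (92.0 ± 1.89 TPM in treated and 180 ± 3.55 TPM in untreated cells; -0.96).

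Other surface genes reported on cDC1 also moved both ways. Of 10 genes 8 could be tested, of which 4 rose, 3 fell and 1 did not pass. Sema4a, a semaphorin gene, was at 86.5 ± 1.94 TPM in treated and 23.3 ± 0.630 TPM in untreated cells (log2 fold change 1.85, limma adjusted p = 2.67e-06). Itgax, the gene of CD11c, was at 218 ± 2.75 TPM in treated and 358 ± 14.5 TPM in untreated cells (-0.71, limma adjusted p = 3.10e-05). Cd207, which encodes langerin, was listed at 0 in all 4 libraries.

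A chosen list of 7 C-type lectin genes near Clec9a on chromosome 6 was compared as a set. The farthest of them, Clec2d, starts 228 kb from Clec9a, and the list need not hold every lectin gene of that stretch. Of these 7 genes 5 could be tested, with 4 risen, 0 fallen and 1 that did not pass. Among all tested genes 28.4% rose and 32.4% fell. The median log2 fold change of the 5 genes was 0.70. Clec2d was at 129 ± 0.177 TPM in treated and 21.3 ± 0.281 TPM in untreated cells (log2 fold change 2.54, limma adjusted p = 6.74e-07). Clec9a itself changed by 0.23 on the same scale, and its interval (0.07 to 0.38) does not reach that of Clec2d (2.46 to 2.63). Clec12b reached the expression limit through the treated libraries, which favours a rise.

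**Figure D5:**
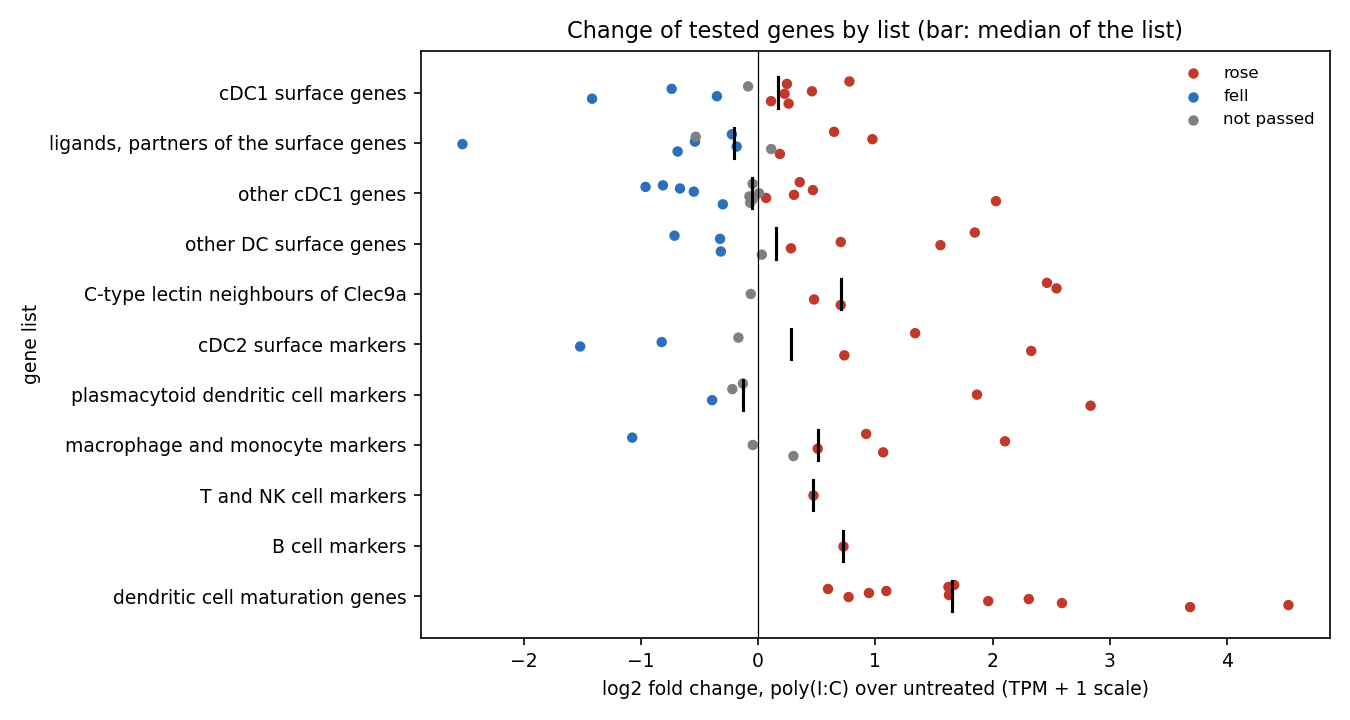
Log2 fold change, poly(I:C) over untreated, of the tested genes of each list (points; red rose, blue fell, grey did not pass) with the median of the list (black bar). The cDC1 surface genes have a median of 0.17 and the dendritic cell maturation genes one of 1.65.

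The 12 genes of dendritic cell maturation all rose, 9 of them at least 2-fold, with a median log2 fold change of 1.65. Ccr7, which encodes a lymph node homing receptor, was at 25.8 ± 2.87 TPM in treated and 0.161 ± 0.0268 TPM in untreated cells (log2 fold change 4.52, limma adjusted p = 2.66e-06); it reached the expression limit through the treated libraries, as did Il12b. These values stood beside the changes of the surface genes, and their part in them was not tested.

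Markers of other cell types were checked since several surface genes are shared with them. Of 10 T and natural killer cell genes 9 were in the table and 1 was tested, Cd3d, which rose (1.53 ± 0.0861 TPM in treated and 0.842 ± 0.233 TPM in untreated cells; log2 fold change 0.47, limma adjusted p = 0.0187); leaving out NT02 (adjusted p = 0.0586) or PolyIC01 (0.0780) ended the call. The list summed to 2.56 and 2.80 TPM in treated and 1.49 and 1.16 TPM in untreated cells, with Cd3e, Cd3g and Ncr1 at 0. Of 6 B cell genes 1 was tested, Ms4a1, which rose (6.25 ± 0.688 TPM in treated and 3.38 ± 0.283 TPM in untreated cells; log2 fold change 0.73, limma adjusted p = 0.00192); the list summed to 7.06 and 5.90 TPM in treated and 3.39 and 3.81 TPM in untreated cells.

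Of 10 cDC2 surface markers 6 were tested, of which 3 rose and 2 fell; of those that rose, Sirpa reached the limit through the treated libraries. Cd4 was at 35.5 ± 0.625 TPM in treated and 6.27 ± 0.331 TPM in untreated cells (log2 fold change 2.33), and Clec4a2 was at 10.4 ± 0.573 TPM in treated and 31.7 ± 1.39 TPM in untreated cells (-1.52). This list summed to 57.4 and 56.4 TPM in treated and 50.9 and 51.8 TPM in untreated cells, with Clec4a4 and Cd209a at 0. Of 9 plasmacytoid dendritic cell markers 5 were tested, of which 2 rose and 1 fell; of those that rose, Pacsin1 reached the limit through the treated libraries. Bst2, which interferon also induces, was at 1267 ± 18.4 TPM in treated and 177 ± 2.77 TPM in untreated cells (2.84), and Cox6a2 was at 11.99 ± 0.251 TPM in treated and 16.05 ± 0.0199 TPM in untreated cells (-0.39). The list summed to 1305 and 1278 TPM in treated and 202 and 204 TPM in untreated cells, of which Bst2 made up 98.1% in both treated libraries and 86.6% and 87.7% in the untreated ones, and Siglech was under 0.5 TPM in every library. Of 10 macrophage and monocyte markers 7 were tested, of which 4 rose and 1 fell. Fcgr1, which like C5ar1 reached the limit through the treated libraries, was at 4.71 ± 0.0700 TPM in treated and 0.327 ± 0.0404 TPM in untreated cells (2.11), and Lyz2 was at 103 ± 5.90 TPM in treated and 218 ± 0.634 TPM in untreated cells (-1.07). That list summed to 383 and 396 TPM in treated and 492 and 490 TPM in untreated cells. The part of these genes in the changes of the surface genes was not tested.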

How the data were processed

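Polyadenylated RNA was sequenced from stranded libraries, per the labels' protocols. Tools listed in the submitters' processing notes, without role or order, are kallisto 0.42.4 and bcl2fastq 2.20.0.422, with the build GRCm38. The authors deposited 1 table of RefSeq transcripts whose name says FPKM; since every column used sums to 1000000, the deposited values were read as TPM, which the authors made per transcript and scaled to that total. Strand use in the counting: not given in the sources used here. The header has 5 names for 6 value columns; the 4 columns used keep their group however the names are aligned, and the other 2 columns of values were left out.

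Of 107384 transcripts 86722 matched a RefSeq symbol (GRCm38.p6, accession without version) and were summed per gene. The 12520 genes averaging 0.5 TPM or more were tested on log2(TPM + 1) with limma 3.58.1 in R 4.3.3, with trend and robust moderation and 2 residual degrees of freedom, and p was adjusted by Benjamini-Hochberg. The fit was tested on simulated data. A log2(TPM + 1) change understates that of low genes. Python 3.11.15 and pandas 2.3.3 made the tables.

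The 10 surface genes and the lists were chosen with earlier results of these data known. The text names every surface gene, their partners, Irf8, Batf3, Tlr3, and per other list the passing gene with the largest rise and fall. A few genes at or near 0 were named after their values were seen. So was Clec1a, as the tested lectin gene that starts nearest to Clec9a.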

Additional observations from a re-analysis of the deposited data

How the results depend on the processing

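Across 11 alternatives, 3 of the 10 surface genes fell in each one, and 3 to 6 rose. The count that rose was 5 without the expression limit, 4 without trend and robust moderation, and 3 to 5 when 1 library was left out (3 without PolyIC01). With pseudocounts of 0.1 or 0.5, an expression limit of 2 TPM, median-of-ratios scaling or curated transcripts alone it stayed at 6. Xcr1 (log2 fold change 0.76 to 0.80), Dpp4 (0.35 to 0.49), Btla (0.18 to 0.31), Cd8a (-0.37 to -0.33), Flt3 (-0.83 to -0.67) and Cd24a (-1.44 to -1.40) kept direction and call in all 11. Clec9a (0.14 to 0.31) lost its call under 4, Cadm1 (0.10 to 0.13) under 5 and Ly75 (0.18 to 0.31) under 1, with no change of direction. Direction turned for Itgae without NT01 (0.10; -0.27 to 0.10 over the 4 omissions of a library) and for Tnfrsf14 with curated transcripts alone (-0.20); neither passed there. Over all genes, in the alternatives that kept all 4 libraries, 2561 to 3854 rose and 3430 to 4057 fell. The number of genes tested in these ranged from 10554 to 22324, so these counts are not shares of a fixed total.

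No paired analysis was possible because the replicate numbers of 3 of the 4 columns are not settled by the header; the fit with a replicate block was therefore not run. With 2 libraries per group and unknown depth, small changes such as that of Cadm1 and low levels such as that of Itgae are poorly resolved.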
